A study of Mus musculus with 6 samples.

Results

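The microglia genes described here are 10 genes that mark microglia in the brain or encode the complement protein C1q, which microglia make. They were taken by symbol, with no cut-off on their values: Cx3cr1, P2ry12, Tmem119, Aif1, Csf1r, C1qa, C1qb, C1qc, Trem2 and Tyrobp. Earlier results of these data were known when they were chosen. All 10 had a row among the 21667 named genes of each sample, and all 10 had reads in every mouse and passed the filter on low values. They were read in poly(A) RNA-seq of somatosensory cortex from adult male mice of a mixed SVeV-129 and C57BL/6J background, 3 control mice (Mef2cfl/fl) and 3 Mef2c cKO mice (Mef2cfl/fl; Emx1-Cre). Both groups carry the floxed alleles of Mef2c, a transcription factor gene, and differ by the Cre. Replicate 1 of each genotype was 14 weeks old, and replicates 2 and 3 were 12 weeks old. Emx1-Cre acts early in development, mainly in the lineage of cortical excitatory neurons and also in some forebrain glia. Microglia descend from yolk-sac progenitors outside that lineage, so the comparison asks how transcripts of resident immune cells stood in a cortex where Mef2c was deleted mainly from another lineage.

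Microglia are the macrophages of the brain parenchyma. They survive on signalling through the CSF1 receptor, which binds CSF1 and IL-34, and they read the state of neurons through receptors for fractalkine and for nucleotides. They also make the 3 chains of C1q, the first component of the classical complement pathway, which tags debris and synapses for removal, and they carry TREM2, a lipid-sensing receptor that signals through the adaptor TYROBP. Because the tissue was read in bulk, fewer microglia and less RNA per microglial cell cannot be told apart in any value below.

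None of the 10 microglia genes passed the test between genotypes in limma with Benjamini-Hochberg adjustment (adjusted p under 0.05 and a log2 fold change beyond 0.3). With voom weights the count was also 0. Of the 14609 genes tested, 13.6% passed, 7.77% lower and 5.88% higher in the cKO. A total of 8 of the 10 had a negative log2 fold change, and their median was -0.14, beside a median of 0.01 over all genes tested, of which 48.3% were negative. Genes of the same cell type read in the same mice are not independent, so the 8 signs are not separate observations. Unadjusted p lay under 0.05 for 3 of the 10 (Cx3cr1, P2ry12 and Csf1r) and for 28.5% of all genes. In 2 of the 10, Cx3cr1 and P2ry12, every cKO mouse lay below every control. That order was met by 17.5% of all genes tested, so the share of members was near the background. The reverse order was met by 0 of the 10, and by 16.3% of all genes.

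Sequence before the start site was compared for the 6 members with an entry in the RefSeq promoter table (build GRCm38.p6): P2ry12, C1qb, C1qc, Cx3cr1, Aif1 and Trem2. C1qa, Csf1r, Tmem119 and Tyrobp had none. The 250 bases before each annotated start were searched on both strands for GAGGAAGT, a strong site of PU.1, the myeloid master regulator, and for the MEF2 consensus, the AT-rich site bound by MEF2 factors, which has the same form on both strands. The MEF2 letters were C or T, then TA, 4 bases of A or T, TA, and A or G. A first search allowed any bases in the middle of the MEF2 site and was then corrected to this consensus. The members matched differed between the spellings. The PU.1 letters stood before C1qc, and a MEF2 consensus before Aif1, where its letters also hold those of a TATA box. Of 32851 promoter windows of the same length, 2.44% held the PU.1 letters and 2.92% the MEF2 consensus. Among 22 of the other microglia genes with an entry, the PU.1 letters stood before 1 gene (Hpgds) and the MEF2 consensus before none (0). A match describes the letters and is not evidence of binding. The windows given here are those of Cx3cr1 and P2ry12, the members whose genotypes did not overlap, and of C1qc and Aif1, the members with a match; capitals mark the match, and Cx3cr1 and P2ry12 had none. The window of Cx3cr1 lies at chr9:120068297-120068546, that of P2ry12 at chr3:59262986-59263235, that of C1qc at chr4:136892915-136893164 and that of Aif1 at chr17:35176053-35176302, all on the minus strand. The PU.1 match began 195 bases before the start of C1qc, where it reads as the reverse complement, and the MEF2 match began 191 bases before that of Aif1.
Cx3cr1: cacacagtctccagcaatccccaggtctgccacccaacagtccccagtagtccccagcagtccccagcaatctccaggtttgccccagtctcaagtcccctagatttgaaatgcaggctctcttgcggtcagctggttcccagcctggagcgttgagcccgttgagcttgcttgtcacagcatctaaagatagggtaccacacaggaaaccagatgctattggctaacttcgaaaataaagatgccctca
P2ry12: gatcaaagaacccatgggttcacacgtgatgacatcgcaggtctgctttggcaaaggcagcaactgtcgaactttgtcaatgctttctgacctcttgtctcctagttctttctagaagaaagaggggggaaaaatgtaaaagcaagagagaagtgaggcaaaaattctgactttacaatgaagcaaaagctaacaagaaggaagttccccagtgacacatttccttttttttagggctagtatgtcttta
C1qc: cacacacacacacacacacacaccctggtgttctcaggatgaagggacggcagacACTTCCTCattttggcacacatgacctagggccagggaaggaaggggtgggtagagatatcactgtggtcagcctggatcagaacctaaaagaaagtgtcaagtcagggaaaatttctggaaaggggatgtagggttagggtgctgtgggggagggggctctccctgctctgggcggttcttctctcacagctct
Aif1: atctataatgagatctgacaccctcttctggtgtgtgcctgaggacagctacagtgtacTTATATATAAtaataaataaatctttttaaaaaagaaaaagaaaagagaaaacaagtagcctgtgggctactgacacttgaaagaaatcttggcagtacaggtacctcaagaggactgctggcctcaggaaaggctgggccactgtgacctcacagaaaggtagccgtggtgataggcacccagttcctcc

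Values are in CPM, the reads of a gene scaled to a common sample total. Cx3cr1, the receptor for neuronal fractalkine, was at 46.9, 52.7 and 52.3 CPM in control mice 1 to 3 and at 40.4, 42.2 and 46.3 CPM in cKO mice 1 to 3. The highest cKO mouse lay just under the lowest control, so the genotypes did not overlap. The means were 50.6 ± 3.26 CPM in control and 43.0 ± 3.02 CPM in cKO cortex (SD, n = 3 mice each). The log2 fold change was -0.24 ± 0.08 (SE) with a limma adjusted p of 0.0703, so the gene missed both cut-offs. As a percentage, the fitted interval ran from -24.8% to -4.27%.

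P2ry12, the ADP receptor that steers microglial processes, was at 33.2, 30.2 and 30.1 CPM in control and at 25.9, 29.0 and 26.8 CPM in cKO mice. All cKO mice were again below all controls, with a gap between the groups smaller than the SD within either of them. The log2 fold change was -0.19 ± 0.08 (SE), with a limma adjusted p of 0.132. Tmem119, a membrane protein used to tell microglia from blood macrophages, was at 13.5, 16.8 and 15.2 CPM in control and at 16.0, 13.7 and 13.6 CPM in cKO mice. Its groups overlapped, with control mouse 1 lowest of all and cKO mouse 1 the second highest. The log2 fold change was -0.07 ± 0.11 (SE) with a limma adjusted p of 0.748.

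Csf1r, the receptor kinase on which microglial survival depends, had the most reads of the 10. It was at 74.0, 82.6 and 90.2 CPM in control and at 74.0, 69.7 and 74.0 CPM in cKO mice. Control mouse 1 stood at the level of the cKO mice, and control mice 2 and 3 stood above all of them. The log2 fold change was -0.18 ± 0.08 (SE) with a limma adjusted p of 0.17. Aif1 encodes IBA1, the actin-binding protein most used to stain microglia, and had the fewest reads, from 35 in cKO mouse 2 to 103 in cKO mouse 3. It was at 1.59, 1.90 and 1.80 CPM in control and at 2.23, 1.81 and 1.90 CPM in cKO mice. The exact Poisson 95% interval for cKO mouse 2 ran from 1.26 to 2.52 CPM, which covers the value of every other mouse. Its log2 fold change was 0.16 ± 0.17 (SE, limma adjusted p = 0.589), so no difference was detected at this depth.

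**Figure D1:**
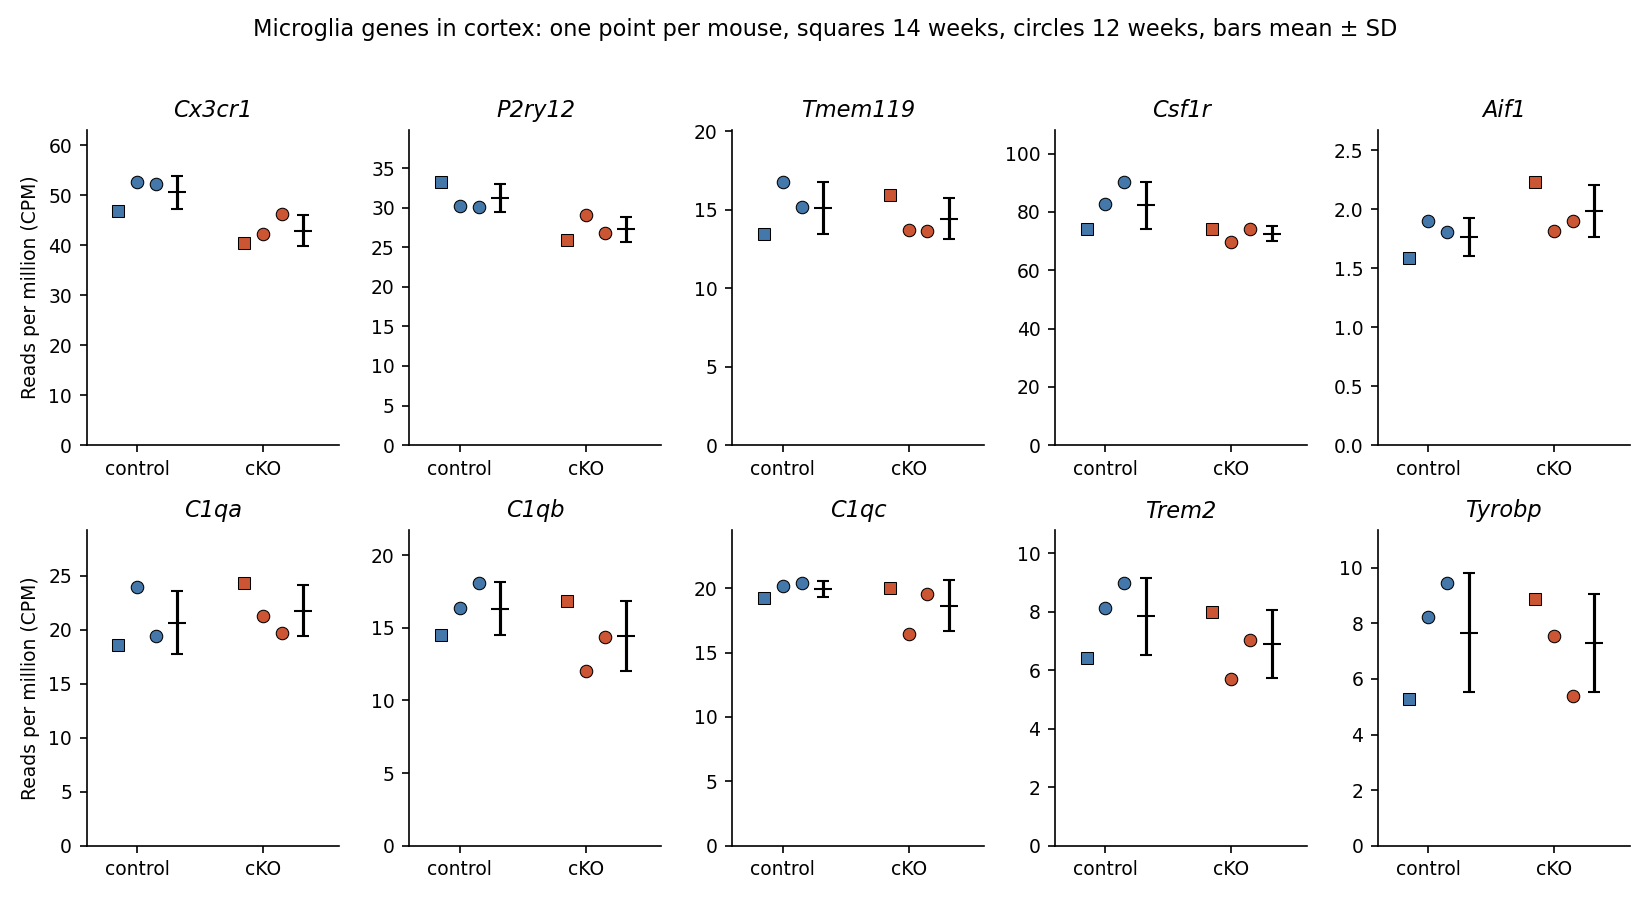
CPM of each microglia gene in each mouse, control on the left and cKO on the right of each panel, with a separate axis from 0 per gene; bars give the mean and SD of 3 mice, squares the 14-week-old and circles the 12-week-old mice. Cx3cr1 and P2ry12 are the panels without overlap; in Tyrobp the controls run from 5.29 to 9.47 CPM and the cKO mice from 5.39 to 8.89 CPM.

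The 3 C1q chains assemble into 1 protein and their genes stand side by side on the minus strand of chromosome 4 (build mm9: C1qb at chr4:136436044-136442102, C1qc at chr4:136445719-136448980 and C1qa at chr4:136451832-136454718). C1qa was at 18.6, 23.97 and 19.4 CPM in control and at 24.4, 21.3 and 19.7 CPM in cKO mice. C1qb was at 14.5, 16.4 and 18.1 CPM in control and at 16.9, 12.0 and 14.4 CPM in cKO mice. C1qc was at 19.2, 20.2 and 20.4 CPM in control and at 19.97, 16.4 and 19.6 CPM in cKO mice. The genotypes overlapped in all 3, and cKO mouse 2 was the lowest of the 6 mice for C1qb and C1qc but not for C1qa. The log2 fold changes were 0.08 ± 0.12 (SE) for C1qa, -0.18 ± 0.14 for C1qb and -0.10 ± 0.09 for C1qc, with limma adjusted p of 0.714, 0.423 and 0.538. Per length of exon, C1qa stood at 1.12 to 1.53 times the level of C1qb in the controls and at 1.43 to 1.86 times in the cKO mice, ranges that overlapped.

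Trem2, the lipid-sensing receptor, was at 6.41, 8.12 and 9.002 CPM in control and at 8.002, 5.69 and 7.04 CPM in cKO mice. Tyrobp, its signalling adaptor (also named DAP12), was at 5.29, 8.22 and 9.47 CPM in control and at 8.89, 7.55 and 5.39 CPM in cKO mice. Both genes were lowest among the controls in mouse 1 and highest among the cKO mice in mouse 1, and both overlapped between genotypes. The log2 fold changes were -0.18 ± 0.16 (SE) for Trem2 and -0.06 ± 0.24 (SE) for Tyrobp, with limma adjusted p of 0.527 and 0.902. The 95% interval for Tyrobp ran from -33.7% to 38.6%, the widest of the 10, so the values of 3 mice a group allow a change of either sign.

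For most members the spread between control mice was wider than counting error. Among the controls the coefficient of variation of Tyrobp was 28.0%, while counting error alone would give 5.79%, and for Csf1r the pair of values was 9.84% and 1.69%. Aif1 and C1qc were the exceptions, with 9.14% and 3.25% between control mice and 11.5% and 3.41% from counting. The SD of log2 CPM within genotypes ran from 0.08 for P2ry12 to 0.40 for Tyrobp, with a median of 0.14 over the 10 genes beside 0.11 over all genes tested. Tyrobp and Trem2, the receptor pair, had the widest spread of the 10.

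The mice of different age stood in opposite places. The 14-week-old control was the lowest of the 3 controls in 9 of the 10 genes (P2ry12, where it was the highest, was the exception), beside 41.7% of all genes tested. The 14-week-old cKO mouse was the highest of the 3 cKO mice in 7 of the 10, beside 36.8% of all genes. Both held for the same 7 genes, beside 18.2% of all genes. Averaged over the members, the centred log2 CPM was -0.11, 0.12 and 0.13 in controls 1 to 3 and 0.07, -0.13 and -0.09 in cKO mice 1 to 3. Control 1 thus stood further from the other controls than the genotype means stood from each other.

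Leaving out both 14-week-old mice, an alternative added after seeing the data, left 2 mice a group. The mice left out were those just seen to be the lowest control and the highest cKO mouse in most members. Their removal by itself moves the genotypes apart in these genes, so the values below are no further support for a difference. The shares over all genes were not picked in this way. Both 12-week-old cKO mice were then below both 12-week-old controls in 8 of the 10 genes, an order met by 29.6% of all genes tested, and above them in 0 of the 10, an order met by 25.0% of all genes. The exceptions were Aif1 and C1qa. In a limma fit on these 4 mice, 9 of the 10 log2 fold changes were negative with a median of -0.23, led by Tyrobp at -0.46 ± 0.19 (SE), Trem2 at -0.43 ± 0.16, C1qb at -0.39 ± 0.13 and Csf1r at -0.26 ± 0.08. Over the 14763 genes tested in that fit, the median log2 fold change was -0.01 and 1468 passed. None of the 10 members passed the test there either, and the smallest limma adjusted p among them was 0.0883 (Csf1r). Of the 10, 5 had an unadjusted limma p under 0.05. The share of all genes under that p was not worked out in this fit, so the count has no background. Age has 1 mouse per genotype at 14 weeks, so within that age a difference has no replicate check, and age and the individual mouse cannot be told apart.

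**Figure D2:**
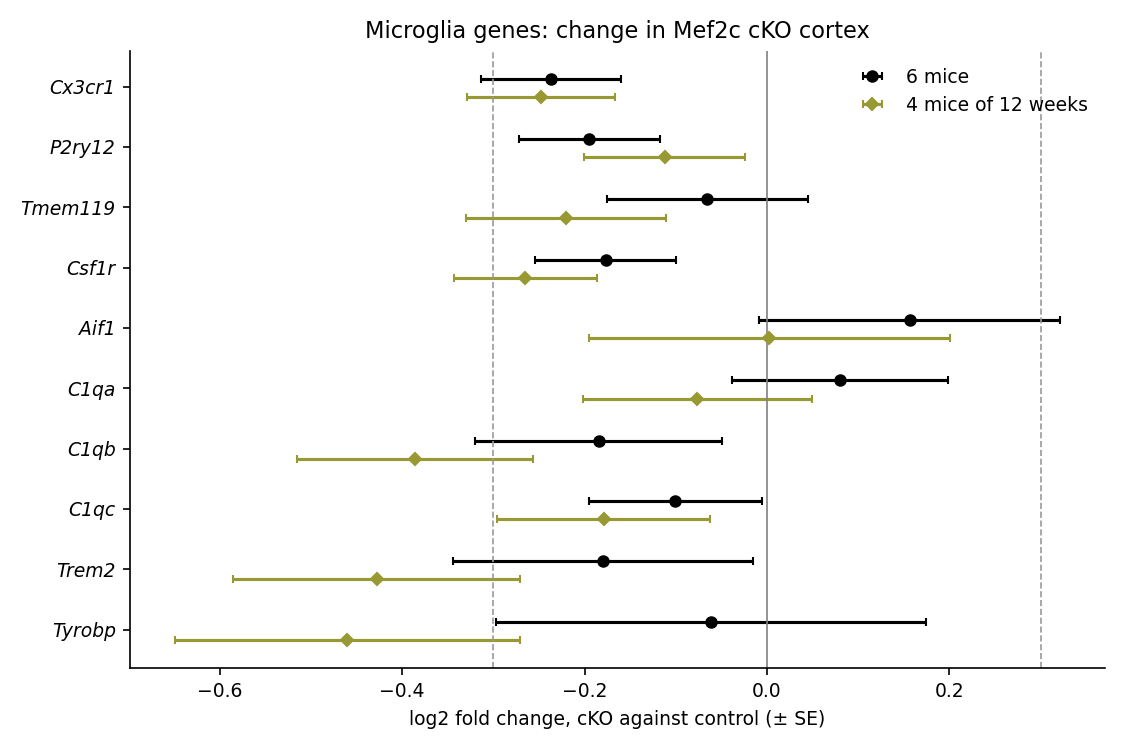
Fitted log2 fold change (cKO against control) of each microglia gene, with its SE; black circles use all 6 mice and olive diamonds the 4 mice of 12 weeks, and dashed lines mark the cut-off of 0.3. With 12-week-old mice the points of 8 genes lie further to the left, as for Tyrobp (-0.06 and -0.46), and that of P2ry12 lies to the right; Cx3cr1 is nearly unmoved.

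Per kilobase of protein-coding exon, C1qa had the highest level in the controls, at 19.9 ± 2.79 CPM per kilobase (SD, n = 3). C1qc (16.6 ± 0.54), Csf1r (15.7 ± 1.55), C1qb (14.99 ± 1.67), Tyrobp (13.6 ± 3.80), Cx3cr1 (13.6 ± 0.87) and P2ry12 (13.1 ± 0.74) followed, a run in which neighbours overlapped, and none of them overlapped with C1qa in the controls. Trem2 (6.86 ± 1.15) and Tmem119 (6.54 ± 0.71) formed the next level and overlapped with each other. Aif1 came last, at 1.54 ± 0.14, with no overlap with Tmem119. The cKO means also placed C1qa first and Aif1 last, with Tmem119 ahead of Trem2.

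**Figure D3:**
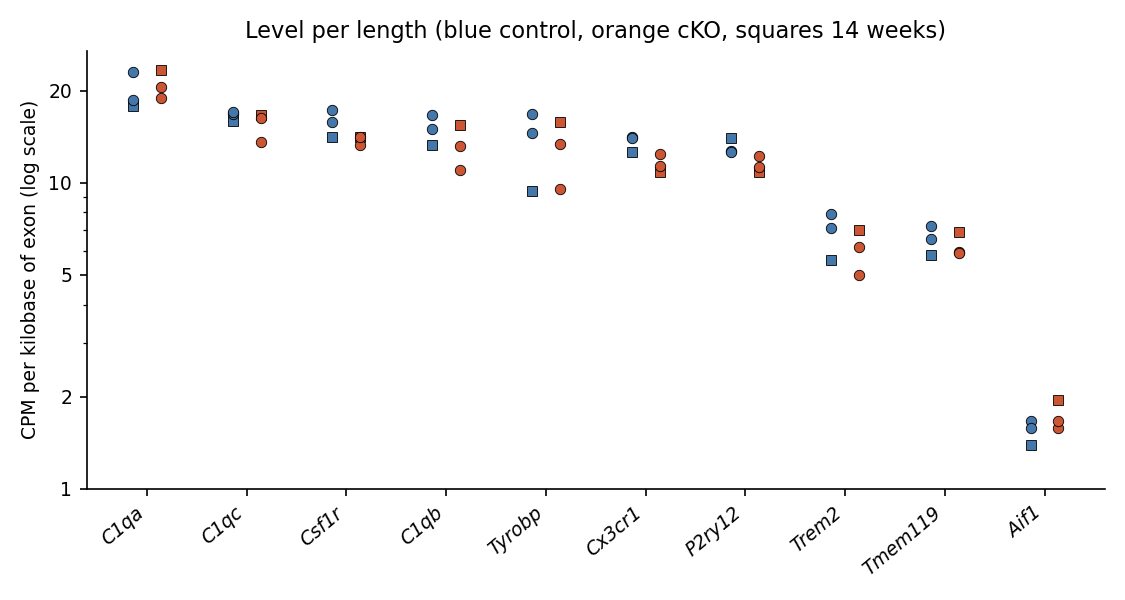
Level of each microglia gene in CPM per kilobase of exon on a log axis, ordered by the control mean, with 1 point per mouse (blue control, orange cKO, squares 14 weeks old). The genes from C1qc to P2ry12 overlap with their neighbours, and Aif1, at 1.54 CPM per kilobase in the controls, stands apart from the other 9.

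Among 28 other genes of microglia, all tested, 1 passed and it fell, beside 13.6% of all genes tested that passed. This was Rgs10, a regulator of G-protein signalling that neurons also express, at 25.6, 29.1 and 25.8 CPM in control and at 15.8, 18.8 and 19.3 CPM in cKO mice. The groups did not overlap, and Rgs10 changed by -0.58 ± 0.10 on the log2 scale (SE, limma adjusted p = 0.00374). The median of the list was -0.07. Its most abundant genes were Ctss, a lysosomal protease, and Tgfbr1, a receptor of TGF-beta. Ctss was nearly level, at 51.1 ± 4.55 CPM in control and 53.9 ± 1.06 CPM in cKO mice (SD, n = 3; limma adjusted p = 0.541). Tgfbr1 was at 35.4, 32.4 and 40.98 CPM in control and at 28.8, 28.0 and 33.3 CPM in cKO mice, with cKO mouse 3 above control mouse 2 (log2 fold change -0.27 ± 0.10 SE, limma adjusted p = 0.119). Without control mouse 3, P2ry6, a nucleotide receptor, passed as well and was higher in cKO mice, and in the 12-week-old mice Fcrls, an Fc receptor-like gene, passed as well and was lower.

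Of 23 ligands and signalling partners of the members, 22 were tested, 2 rose and 2 fell, and the median log2 fold change was 0.06. Over all genes tested, 5.88% rose and 7.77% fell. Hcst, the gene of this list not tested, lay under the filter, with 6, 22 and 21 reads in control and 3, 1 and 5 reads in cKO mice. The ligands of CX3CR1 and CSF1R did not pass. Cx3cl1, the neuronal fractalkine that CX3CR1 binds, was at 602, 638 and 535 CPM in control and at 553, 492 and 518 CPM in cKO mice (log2 fold change -0.18 ± 0.08 SE, limma adjusted p = 0.159). Il34, the CSF1R ligand that neurons make, was at 57.6, 63.1 and 55.2 CPM in control and at 55.2, 49.5 and 52.2 CPM in cKO mice (-0.16 ± 0.07 SE, limma adjusted p = 0.176). Csf1, the other CSF1R ligand, was at 17.6, 13.04 and 16.0 CPM in control and at 15.9, 18.5 and 19.4 CPM in cKO mice (0.21 ± 0.13 SE, limma adjusted p = 0.316). Cx3cl1 and Il34 thus had lower cKO means, as did their receptors, and Csf1 a higher one, and all 3 overlapped between genotypes. Clu, a secreted chaperone that TREM2 binds and the most abundant gene of the list, was at 721 ± 47.2 CPM in control and 814 ± 75.4 CPM in cKO mice (SD, n = 3; limma adjusted p = 0.207).

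Among the 22 tested ligands and partners, Tgfb2, a TGF-beta ligand, had the largest change. It was at 7.32, 7.57 and 7.24 CPM in control and at 16.4, 13.6 and 16.2 CPM in cKO mice, with no overlap and a log2 fold change of 1.05 ± 0.11 (SE, limma adjusted p = 0.00017). Syk, the kinase that TYROBP recruits, was at 4.88, 5.55 and 5.67 CPM in control and at 7.36, 11.1 and 7.85 CPM in cKO mice (0.68 ± 0.16 SE, limma adjusted p = 0.0199). Inpp5d, the phosphatase SHIP1 that opposes TREM2 signalling, was at 11.9, 11.8 and 12.9 CPM in control and at 8.28, 9.37 and 10.2 CPM in cKO mice (-0.39 ± 0.11 SE, limma adjusted p = 0.0353). Gas6, a bridging ligand for the engulfment receptors MERTK and AXL, was at 101, 117 and 116 CPM in control and at 87.2, 90.2 and 93.1 CPM in cKO mice (-0.30 ± 0.07 SE, limma adjusted p = 0.0174). None of these 4 overlapped between genotypes. Of the 22 tested in this list, 5 had every cKO mouse above every control and 5 had every cKO mouse below. Over all genes tested the shares were 16.3% and 17.5%. Tgfb2 alone of the 4 kept its call in every fit without 1 mouse. Syk was lost without control mouse 1 or control mouse 2, Gas6 (which lies at the fold cut-off) without control mouse 2, control mouse 3, cKO mouse 1 or cKO mouse 2, and Inpp5d without any mouse other than cKO mouse 3.

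The complement list held 35 genes beside the C1q chains, of which 32 matched a row by the symbol used and 21 were tested. There 1 gene fell and 3 rose, beside 7.77% and 5.88% of all genes tested, and the median log2 fold change was 0.03. C1ra, a protease that joins C1q to form the C1 complex, fell from 4.15, 3.04 and 3.05 CPM in control to 0.489, 0.517 and 0.443 CPM in cKO mice (141, 150 and 157 against 16, 10 and 24 reads), a log2 fold change of -2.58 ± 0.19 (SE, limma adjusted p = 2.83e-05). The C1q chains that this protease acts with did not pass the test. C3, the central component of the cascade, was too low to test. The near-identical neighbour of C1ra, C1rb, and the substrate protease C1s, which the files list as C1s1 and C1s2, were looked up after these values were seen. C1rb was at 1.30 to 1.97 CPM in control and 0.148 to 0.259 CPM in cKO mice (-2.51 ± 0.26 SE, limma adjusted p = 0.00022), and C1s1 at 1.71 to 2.12 CPM in control and 0.366 to 0.628 CPM in cKO mice (-1.85 ± 0.23 SE, limma adjusted p = 0.000547). C1s2 did not pass, at 0.718 to 0.972 CPM in control and 0.397 to 0.673 CPM in cKO mice (-0.53 ± 0.24 SE, limma adjusted p = 0.19). Reads of C1ra and C1rb, and those of C1s1 and C1s2, may be split between the copies.

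C4a rose from 7.94, 9.11 and 9.68 CPM in control to 18.0, 14.1 and 18.4 CPM in cKO mice (0.91 ± 0.13 SE, limma adjusted p = 0.00119). Its near-identical copy C4b, the main C4 gene of the mouse, was listed at 0 in every mouse, so which copy the reads came from is uncertain. Csmd3 and Susd4, membrane proteins with complement control domains that neurons express, rose to 64.9 ± 3.96 from 49.6 ± 3.51 CPM and to 202 ± 9.24 from 157 ± 9.13 CPM (SD, n = 3; limma adjusted p = 0.00635 and 0.00422). Sez6l2 and Sez6l, the most abundant of the list and also neuronal, did not pass, at 399 ± 24.1 and 407 ± 11.2 CPM and at 329 ± 9.44 and 304 ± 13.2 CPM in control and cKO mice (limma adjusted p = 0.778 and 0.221).

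Of 30 genes that microglia raise on activation, 16 were tested and 3 rose, with a median log2 fold change of 0.14. Over all genes tested, 5.88% rose and 13.6% passed in either direction. Spp1, the secreted phosphoprotein osteopontin, was at 6.29, 6.36 and 6.05 CPM in control and at 10.9, 7.61 and 10.8 CPM in cKO mice (0.62 ± 0.15 SE, limma adjusted p = 0.0196). Cd9, a tetraspanin, was at 35.7, 29.4 and 37.0 CPM in control and at 44.6, 48.9 and 55.5 CPM in cKO mice (0.54 ± 0.11 SE, limma adjusted p = 0.00786). Lpl, lipoprotein lipase, was at 31.0, 36.8 and 37.1 CPM in control and at 52.0, 41.1 and 57.1 CPM in cKO mice (0.51 ± 0.12 SE, limma adjusted p = 0.0208). All cKO mice were above all controls for the 3 genes, an order met by 4 of the 16 tested and by 16.3% of all genes. Without control mouse 1, without cKO mouse 3, and in the 12-week-old mice, Cd9 was the 1 gene of this list that passed. Lpl was also lost without cKO mouse 1, and Spp1 without any mouse other than cKO mouse 2. Spp1, Cd9 and Lpl are also transcribed by neurons or oligodendrocytes. The 14 untested genes, which include Cst7, Clec7a, Itgax, Il1b and Tnf, were under 1 CPM in every mouse. H2-Ab1, also among the 14, was listed at 0 in every mouse, and whether its reads were counted was not tested. The lysosomal proteases Ctsb and Ctsd, the most abundant of the list, did not pass (limma adjusted p = 0.808 and 0.574).

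**Figure D4:**
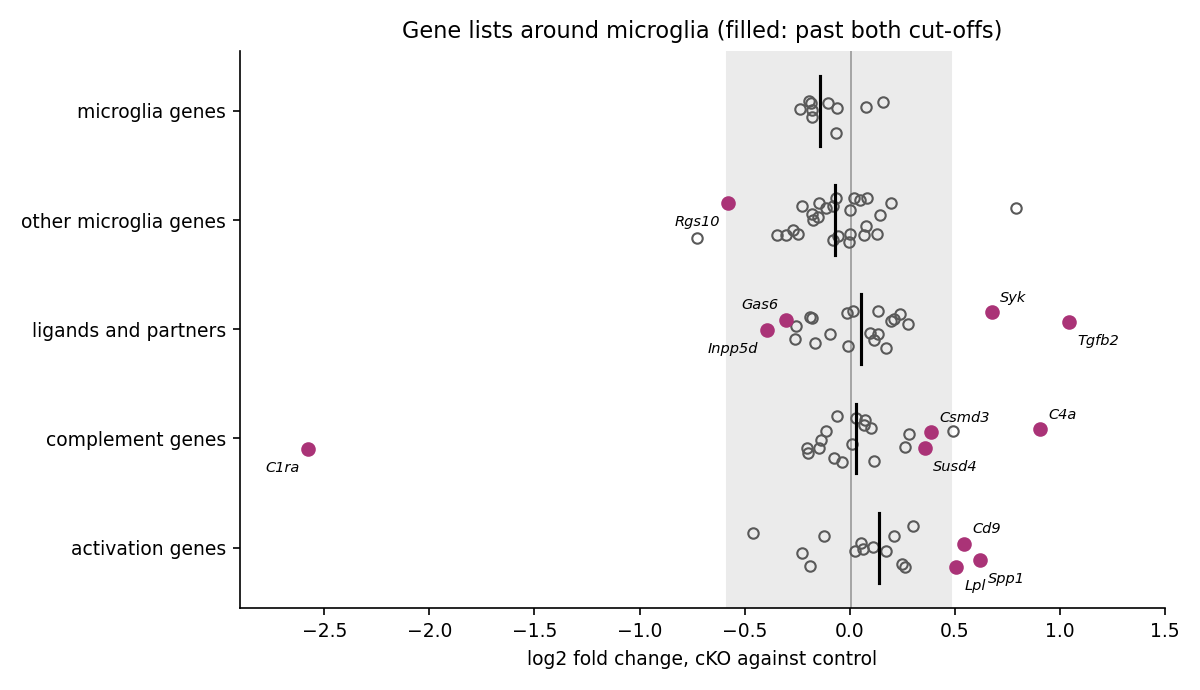
Fitted log2 fold change (cKO against control) of every tested gene of 5 lists; filled points passed both cut-offs and are named, black bars are list medians, and the grey band spans the 5th to 95th percentile of all genes tested (-0.59 to 0.48). The 10 microglia genes lie within the band, and C1ra (-2.58), Tgfb2 (1.05) and C4a (0.91) lie outside it.

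Markers of other cells were read in the same libraries. The 7 markers of perivascular macrophages, which share several of the members, summed to 8.67 to 10.3 CPM in control and 7.04 to 10.96 CPM in cKO mice. A total of 4 of the 7 were under 1 CPM in every mouse, and the median log2 fold change of the 3 tested was -0.23. The 10 markers of blood leukocytes summed to 6.09 to 7.73 and 5.47 to 6.63 CPM, with 9 of the 10 under 1 CPM in every mouse. These sums were mostly reads of 1 gene, Ly6c2, at 5.44 ± 0.82 CPM in control and 4.96 ± 0.58 CPM in cKO mice (SD, n = 3). Which cells those reads came from was not tested. Among 10 astrocyte markers 2 rose (Gfap and Aqp4) and 1 fell (Aldh1l1), beside 5.88% and 7.77% of all genes tested. Every cKO mouse was above the controls for 4 astrocyte markers (16.3% of all genes tested) and below the controls for 4 (17.5%). Their sums were 4907 to 5212 CPM in control and 4341 to 4609 CPM in cKO mice, and were mostly reads of Slc1a2, the glutamate transporter, at 3407 ± 150 and 2864 ± 139 CPM (SD, n = 3), under the fold cut-off. Among 10 oligodendrocyte markers 2 rose (Mobp and Cldn11), beside 5.88% of all genes tested. The 10 summed to 3384 to 5557 CPM in control and 5474 to 7062 CPM in cKO mice. Of these 10, 0 had a negative log2 fold change, beside 48.3% of all genes tested, and their median was 0.53. Of 10 endothelial markers 8 had a negative log2 fold change, and their median was -0.11. The 10 neuronal markers, which check the tissue, summed to 10430 to 11850 CPM in control and 11540 to 12980 CPM in cKO mice. Among them 2 rose (Stmn2 and Nefl), beside 5.88% of all genes tested. Of the 10, 2 had a negative log2 fold change, and the median of the list was 0.15. Every cKO mouse lay above every control for 5 of the 10, an order met by 16.3% of all genes tested. The part of these cells in the microglial values was not tested. The summed CPM of the members was 233, 261 and 266 in control and 237, 219 and 229 in cKO mice, so control mouse 1 lay among the cKO mice.

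Among 11738 other genes with a mean of at least 5 CPM, those whose log2 CPM over the 6 mice was most like the mean profile of the members were Mta1 (Pearson r = 0.996), Gmip (0.993), Agpat5 (0.993), Gm15645 (0.986) and Rad54l2 (0.985). The points share libraries and scaling, and the 1000th gene in this order still had r = 0.687, so the likeness is a description of 6 mice.

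The recovered read totals ran from 19326365 in cKO mouse 2 to 54128334 in cKO mouse 3. The correlation of log2 CPM between mice was 0.992 to 0.995 within genotypes and 0.978 to 0.981 between them. The whole-gene count of Mef2c was higher in cKO mice, at 1325 ± 126 CPM against 791 ± 16.4 CPM in control (SD, n = 3; log2 fold change 0.74, limma adjusted p = 0.000177). That count sums all exons, the deleted part and the rest, so it does not check the deletion. At the protein level the paper reports, by Western blot, a strong loss of MEF2C in cortex and hippocampus of cKO mice.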

How the data were processed

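Poly(A) RNA of somatosensory cortex from 6 mice was sequenced with a directional library preparation. The authors aligned reads to mm9 with TopHat and Bowtie, counted genes with HTSeq and deposited RPKM values, 1 table per mouse; tool versions are not given in the sources used here. In the deposited RPKM the length behind 1 gene differed between mice, so the values were not comparable between mice. With rows in Entrez ID order the lengths recurred with a fixed period in each file, which gave the value of 1 read and whole counts (99.91% to 99.94% of values above 0 that could be judged were whole within 0.02 reads). A count in every mouse was obtained for 21637 of 21667 named genes, and the recovered reads summed to 99.87% to 99.90% of the totals. Another 92 rows that carry no gene symbol stayed out of every step. On simulated RPKM tables of 16592 to 17295 genes above 0 per library, all recovered counts were right. Those tables were built with lengths that recur in Entrez ID order, so they test the procedure. They cannot show that the deposited values have that form.

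CPM is a gene's recovered reads scaled to a common sample total. Genes above 0.5 CPM in every mouse of at least 1 genotype were tested on log2(CPM + 0.1) with limma 3.58.1 in R 4.3.3 (variance trend, genotype as the only term, two-sided, Benjamini-Hochberg adjustment over 14609 genes). The study's methods used a count model; limma on log values was used here, since the counts are recovered values. In simulated reads of the same comparison (14639 genes), 92.0% of 100 genes changed by 0.6 and 100 of 100 changed by 1 on the log2 scale were called. Of all calls in that simulation, 5.4% fell on unchanged genes. Changes smaller than 0.6 were not simulated, and with 6 mice the fitted change of every member was smaller. The shares were also not worked out at the spread of each member, such as the SD of 0.40 for Tyrobp beside a median of 0.11 over tested genes. They therefore do not give the chance of calling a change in the members. A single value has no smaller exact permutation p than 0.1 with 3 mice a group. Mice are separate animals; Poisson intervals cover counting error only.

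The text names all members, Mef2c, each gene of 4 lists (other microglia, ligands and partners, complement, activation) past the test with the 2 most abundant of each list, Csf1, Il34 and Cx3cl1, and 5 genes most like the members. Some genes of the other microglia list are not reported here. The members, lists and tests were chosen with earlier results of these data known. Lengths and positions are from GENCODE vM1 on mm9, over protein-coding transcripts. The alternatives were other pseudocounts, filters, scalings and variance models, a replicate block, age, leaving out mice, and the RPKM as deposited.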

Additional observations from a re-analysis of the deposited data

How the results depend on the processing

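In 17 alternatives on reads, none of the microglia genes was called, and the smallest adjusted p was 0.0488 (Cx3cr1 without cKO mouse 3, log2 fold change -0.29, under the fold cut-off). Leaving out each mouse in turn gave -0.15 to 0.01 for Tmem119, -0.0038 to 0.19 for C1qa, -0.30 to 0.14 for Tyrobp and -0.0185 to 0.0595 for Sez6l2, which each changed sign. Without control mouse 2, Tmem119 was 0.0106 and Tyrobp 0.0095. Tyrobp was 0.11 without control mouse 3 and 0.14 without cKO mouse 3. C1qa was -0.0038 without cKO mouse 1 and -0.076 in the 12-week-old mice. Cx3cr1, P2ry12, Csf1r, C1qb, C1qc, Trem2 and Aif1 kept their sign in every alternative on reads that tested them. Without 1 mouse, 1652 to 1863 genes were called in all, against 1994 with 6 mice, and 1468 in the 12-week-old mice. The calls numbered 1 to 2 among other microglia genes (2 with a pseudocount of 1 and in the 12-week-old mice), 1 to 4 among ligands and partners, and 1 to 3 among activation genes; the activation list had 1 call (Cd9) in the 12-week-old mice. Complement had 4 calls each time.

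Same-numbered mice of the 2 genotypes did not deviate together (r = -0.177, -0.108 and -0.081), so the numbers were not taken to pair them; mice 1 also share an age, as do mice 2 and 3. With the replicate block 1691 genes were called, and 1 other microglia gene (Rgs10).

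On the RPKM as deposited 14 of 7974 genes were called, and 0 in each list, since lengths differ between files. There Tmem119 was 1.39, Ctss -3.49, Susd4 -2.52, Ctsb -0.049 and Ctsd -2.51. Depth limits Aif1 most; among the controls only Aif1 and C1qc varied less than counting error alone would give.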
